A study of Mus musculus with 18 samples.

Results

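The genes described here are 8 secreted modulators of Wnt signalling (Sfrp1, Sfrp2, Sfrp4, Sfrp5, Frzb, Dkk2, Dkk3 and Wif1) and Axin2, a transcriptional target of the pathway. They were taken by gene symbol, with no threshold on a measured value but with earlier results of these data known, and are 9 of the 23420 genes in the count tables. All 9 were present in the tables. Of these, 8 passed the filter on low counts and were tested, and Dkk2 did not pass it.

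The study followed direct cardiac reprogramming, in which fibroblasts of the heart are pushed towards a cardiomyocyte-like state without passing through a stem cell. Its question was how loss of Mtfr1l, a mitochondrial protein of the fission regulator family, changes that process. Opa1, which drives fusion of the inner mitochondrial membrane, was lowered as well. Bulk RNA was sequenced from 18 samples in 2 sets.

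All cultures started from primary fibroblasts of the hearts of neonatal CD1 mice, and all groups used here also carried a retrovirus that expresses Mef2c, Gata4 and Tbx5 (MGT) from 1 polycistronic transcript. In the second set the shNT group received a non-targeting short hairpin RNA (shRNA), the shMtfr1l group an shRNA against Mtfr1l, the shOpa1 group an shRNA against Opa1, and the double knockdown group both. Each of the 4 groups had 3 libraries, labelled as biological replicates 1, 2 and 3, and the titles give day 7 to replicate 1, day 8 to replicate 2 and day 9 to replicate 3. The titles name shOpa1 in all of them, while the genotype field reads shOpa2 and shOpa3 for the day 8 and day 9 libraries of the 2 groups with Opa1 knockdown. The first set had 1 reprogramming sample with shNT and 1 with shMtfr1l at day 7, the latter labelled with a knockdown of 85%. The other 4 samples, fibroblasts without the reprogramming virus, are not analysed here. The labels name no sorting, so a library may have held reprogrammed and unreprogrammed cells together, and the sources used here do not say how many animals went into a library.

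Wnt ligands bind Frizzled receptors with the co-receptors Lrp5 and Lrp6 and stabilise beta-catenin, which activates target genes together with TCF and LEF factors. Secreted frizzled-related proteins and Wif1 bind the ligands outside the cell, while classical Dickkopf proteins bind the co-receptors. In the heart the pathway has stage-dependent roles in the formation of cardiomyocytes, and in the injured heart Sfrp2 and related proteins have been studied in fibrosis.

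The labels were checked first. Mtfr1l fell from 71.8 ± 4.17 CPM (counts per 1e+06 counts of the library; SD, n = 3) in shNT to 16.4 ± 2.88 in shMtfr1l and 27.2 ± 4.15 in the double knockdown. Opa1 fell from 63.1 ± 8.33 CPM to 8.95 ± 3.16 in shOpa1 and 18.3 ± 2.33 in the double knockdown. Both targets were thus lowered less in the double knockdown, where Mtfr1l was 1.66-fold above its level in shMtfr1l (adjusted p = 5.26e-06) and Opa1 2.04-fold above its level in shOpa1 (adjusted p = 0.00745). Each comparison of the double with a single knockdown, and the interaction, sets unequal knockdowns against each other. Depth ran from 16205862 to 25317069 counts per library, so that 3 counts, the smallest level taken as measurable, corresponded to 0.118 to 0.185 CPM. All 11 fibroblast markers and all 13 cardiomyocyte markers were detected, and the fibroblast markers summed to between 24353 and 28582 CPM in the 12 libraries.

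Per kilobase of annotated length, the scale on which different genes can be compared, Frzb, Dkk3 and Sfrp1 were the most abundant of the set. In shNT, Frzb stood at 48.0 ± 4.79 CPM per kb, Dkk3 at 43.2 ± 3.57 and Sfrp1 at 28.4 ± 1.35 (SD, n = 3). Sfrp2 reached 3.50 ± 0.814 CPM per kb, Wif1 1.33 ± 0.0186 and Axin2 0.762 ± 0.201. Sfrp4, Dkk2 and Sfrp5 lay at 0.334 ± 0.113, 0.148 ± 0.0588 and 0.110 ± 0.0967 CPM per kb.

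**Figure D1:**
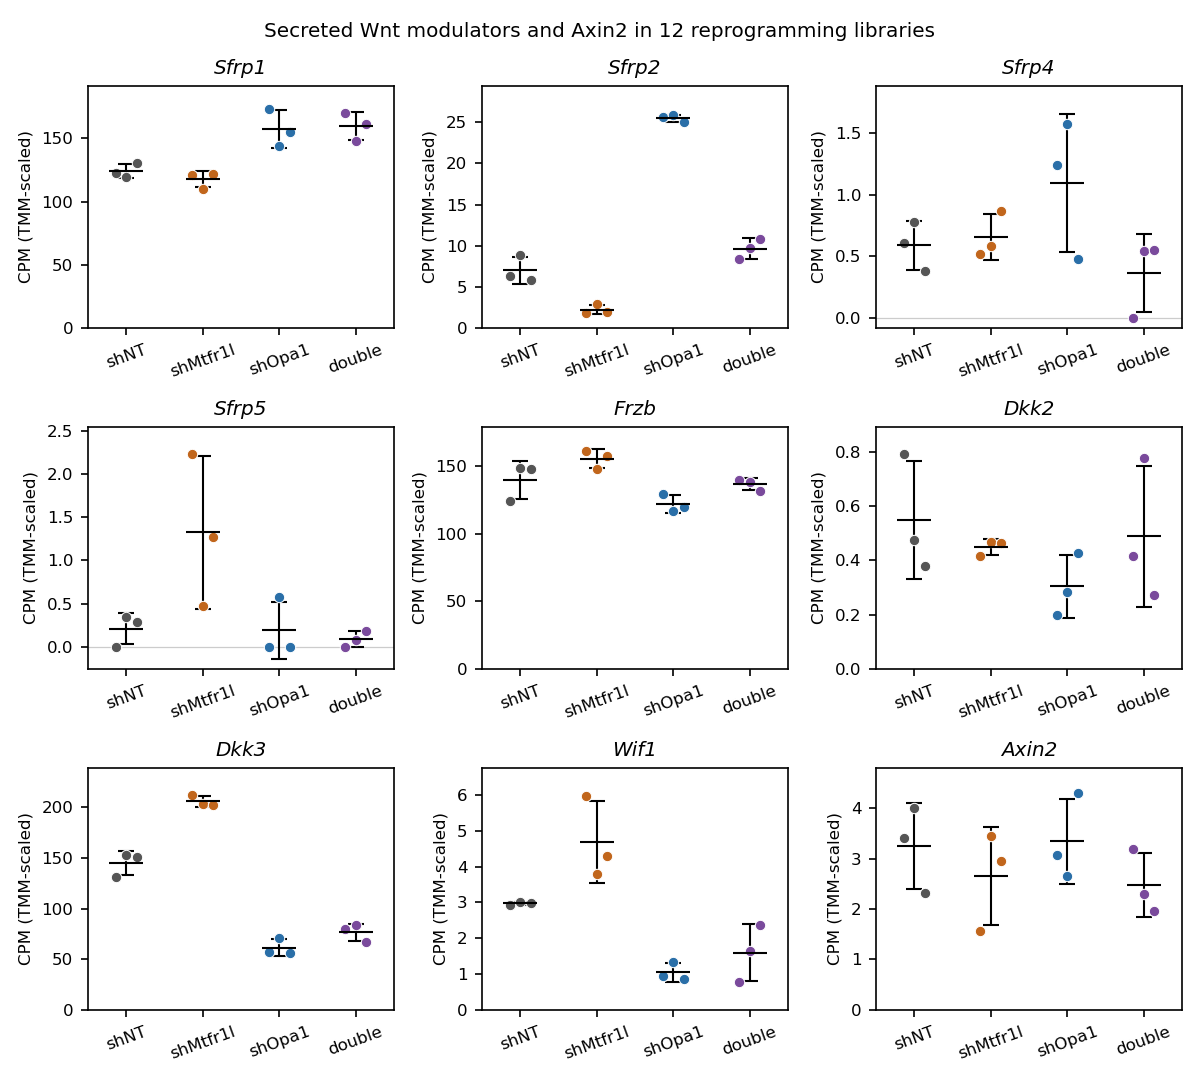
Level of each gene (CPM scaled by the trimmed mean of M values, vertical axis of its own for each gene) in the 12 reprogramming libraries of the second set, 1 point per library from replicate 1 at the left to 3 at the right of each group, with the group mean and SD as bars. Sfrp2 was at 25.0 to 25.9 CPM in shOpa1 and at 1.82 to 2.86 in shMtfr1l, while Dkk3 was at 202 to 213 CPM in shMtfr1l and at 56.3 to 71.0 in shOpa1.

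Sfrp2 encodes a secreted frizzled-related protein and showed the largest change of the set among genes above 2 CPM in shNT. In shNT it was at 6.29, 8.87 and 5.86 CPM in replicates 1, 2 and 3, and in shMtfr1l at 1.82, 2.86 and 1.97 CPM. In shOpa1 it was at 25.6, 25.9 and 25.0 CPM, and in the double knockdown at 8.38, 9.68 and 10.8 CPM. The shOpa1 libraries were far above all others and the shMtfr1l libraries below all others, whereas the ranges of shNT and the double knockdown overlapped. In bulk RNA a change in the number of cells that express a gene and a change in RNA per cell cannot be told apart, here or for any gene below.

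The fall of Sfrp2 in shMtfr1l against shNT was -1.67 ± 0.21 on the log2 scale (SE; 3.18-fold; adjusted p = 3.02e-07, edgeR's quasi-likelihood test with Benjamini-Hochberg adjustment over all genes). Its rise in shOpa1 was 1.86 ± 0.18 (3.63-fold; adjusted p = 2.35e-10). Between the single knockdowns the difference was 11.5-fold (adjusted p = 1.34e-16). The double knockdown lay 4.35-fold above shMtfr1l (adjusted p = 3.84e-10) and 2.65-fold below shOpa1 (adjusted p = 1.19e-06). Against shNT it was 0.45 ± 0.19 higher (log2), which did not pass (adjusted p = 0.0735). This last difference passed without shNT replicate 2, the highest control library (adjusted p = 0.0180), and without replicate 2 of every group (adjusted p = 0.0444). The interaction term, the log2 change in the double knockdown beyond the sum of both single changes, was 0.26 ± 0.28 and did not pass (adjusted p = 0.736).

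The promoters of Sfrp2 and Wif1, the genes with the largest folds in opposite directions after Opa1 knockdown, and of Axin2, the pathway target, are shown to let a reader see the sequence before the start of each. They are the 250 bases before the annotated start, read in the direction of the gene, from the RefSeq promoter table on GRCm38.p6, which held 6 of the 9 genes. Capitals mark the 5 letters CTTTG, the core of the sequence that TCF and LEF factors bind, searched on both strands. Sfrp2 lies on the forward strand (window chr3:83766071-83766320), as do Wif1 (chr10:121033754-121034003) and Axin2 (chr11:108920099-108920348).
Sfrp2: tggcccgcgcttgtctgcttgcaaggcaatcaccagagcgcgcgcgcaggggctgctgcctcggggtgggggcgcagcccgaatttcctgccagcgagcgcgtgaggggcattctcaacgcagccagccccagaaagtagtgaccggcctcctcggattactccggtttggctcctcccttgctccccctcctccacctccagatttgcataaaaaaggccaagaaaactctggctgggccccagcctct
Wif1: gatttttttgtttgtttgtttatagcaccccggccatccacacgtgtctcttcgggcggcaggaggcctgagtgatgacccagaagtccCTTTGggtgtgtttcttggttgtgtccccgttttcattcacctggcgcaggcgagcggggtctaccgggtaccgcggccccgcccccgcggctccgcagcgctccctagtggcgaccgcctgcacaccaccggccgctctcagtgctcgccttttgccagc
Axin2: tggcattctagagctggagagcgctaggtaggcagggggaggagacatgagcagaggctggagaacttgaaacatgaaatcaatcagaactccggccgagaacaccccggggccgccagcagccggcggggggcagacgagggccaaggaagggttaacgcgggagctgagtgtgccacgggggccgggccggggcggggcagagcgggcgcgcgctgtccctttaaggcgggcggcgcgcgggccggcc
CTTTG occurred 161 bases before the start of Wif1, in the direction of the gene, and in neither of the other 2 windows. Among the other 3 promoters it occurred in Frzb (94 bases before the start, reverse strand) and Dkk2 (80 bases before the start). Thus 3 of the 6 held it, against 48.6% of all 32851 promoters in the table. The longer forms CTTTGAT and CTTTGAA, which contain it, were in none of the 6 and in 3.2% and 4.5% of all promoters. AGATAA, the only form of a GATA site that was searched, was in the Sfrp5 window alone, at 236 and 180 bases before the start, and in 10.0% of all promoters. The Sfrp2, Wif1 and Axin2 windows held 16, 21 and 24 CG dinucleotides, against a median of 6 over all promoters. Sfrp1, Sfrp4 and Dkk3 had no entry in the table.

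Sfrp1, a related ligand-binding protein, was higher wherever Opa1 was lowered. In shNT it was at 122, 119 and 131 CPM in replicates 1, 2 and 3, and in shMtfr1l at 121, 110 and 122 CPM. In shOpa1 it was at 174, 144 and 155 CPM, and in the double knockdown at 170, 148 and 161 CPM. The 6 libraries with Opa1 knockdown were all above the 6 without it. The rise over shNT was 1.27-fold in shOpa1 (log2 0.34 ± 0.07 SE; adjusted p = 1.10e-04) and 1.29-fold in the double knockdown (adjusted p = 7.44e-05). Sfrp1 was 0.08 ± 0.07 lower in shMtfr1l than in shNT on the log2 scale (SE), which did not pass (adjusted p = 0.583), and the libraries of these groups overlapped. The double knockdown and shOpa1 differed by 0.02 ± 0.07 on the log2 scale (adjusted p = 0.925).

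Frzb, also named Sfrp3, was the most abundant of the frizzled-related genes per length. In replicates 1, 2 and 3 it was at 124, 149 and 148 CPM in shNT and at 162, 148 and 158 in shMtfr1l. In shOpa1 it was at 130, 117 and 120 CPM, and in the double knockdown at 140, 139 and 132. The shOpa1 libraries lay below all libraries of shMtfr1l and of the double knockdown but overlapped with shNT, whose replicate 1 was low. Frzb was 1.15-fold lower in shOpa1 than in shNT (adjusted p = 0.0167) and 1.28-fold lower than in shMtfr1l (adjusted p = 4.48e-05). The first of these calls was lost without shNT replicate 2 (adjusted p = 0.115) or 3 (0.106), without shOpa1 replicate 2 (0.0816) or 3 (0.0553), and without replicate 2 (0.314) or 3 (0.209) of every group. The double knockdown was 1.14-fold below shMtfr1l (adjusted p = 0.0353). That call was lost with the replicate number as a block (adjusted p = 0.0546) and without any 1 double knockdown library (adjusted p 0.0590, 0.0670 and 0.139). It was also lost without shMtfr1l replicate 1 (adjusted p = 0.144) or 3 (0.0926), and without replicate 1, 2 or 3 of every group (0.0923, 0.0567 and 0.238).

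Sfrp4 and Sfrp5, the other frizzled-related genes, were near the limit of detection. Sfrp4 was at 0.378 to 0.775 CPM in shNT, 0.520 to 0.870 in shMtfr1l and 0.477 to 1.57 in shOpa1, and at 0 to 0.547 in the double knockdown. Its groups overlapped in every comparison and none passed the test (adjusted p from 0.346 to 0.948). Sfrp5 was covered by 0, 8 and 6 counts in shNT, 43, 8 and 22 in shMtfr1l, 0, 12 and 0 in shOpa1, and 0, 2 and 4 in the double knockdown. The shMtfr1l libraries 1 and 3 were the highest, and Sfrp5 passed the low-count filter through them and shOpa1 replicate 2. Its levels in shMtfr1l were above those of shNT in all 3 libraries (1.33 ± 0.884 against 0.209 ± 0.184 CPM), but the difference did not pass (adjusted p = 0.132). It was lower in the double knockdown than in shMtfr1l (adjusted p = 0.0145), a call lost without shMtfr1l replicate 1 (0.114), double knockdown replicate 1 (0.0925) or 2 (0.0678), or replicate 1 of every group (0.230). Between shOpa1 and shMtfr1l it passed narrowly (adjusted p = 0.0487), and not with the replicate block (0.0523), under DESeq2 (0.0640), without the low-count filter (0.0813) or without shMtfr1l replicate 1 (0.258) or 3 (0.10), shOpa1 replicate 1 (0.194) or 3 (0.189), or replicate 1 (0.437) or 3 (0.243) of every group.

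Dkk3, a secreted glycoprotein of the Dickkopf family that differs from the classical members in its effect on the co-receptors, moved opposite to Sfrp2 in each comparison in which both were called. In shNT it was at 131, 152 and 151 CPM in replicates 1, 2 and 3, and in shMtfr1l at 213, 203 and 202 CPM. In shOpa1 it was at 57.2, 71.0 and 56.3 CPM, and in the double knockdown at 79.6, 83.4 and 66.9 CPM. All shMtfr1l libraries were above all others, the shNT libraries came next, and both groups with Opa1 knockdown lay below them and overlapped each other. The rise in shMtfr1l over shNT was 1.42-fold (log2 0.51 ± 0.08 SE; adjusted p = 2.25e-04). The fall was 2.36-fold in shOpa1 (log2 -1.24 ± 0.09; adjusted p = 1.53e-10) and 1.89-fold in the double knockdown (log2 -0.92 ± 0.09; adjusted p = 3.53e-08).

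Against shMtfr1l, Dkk3 was 2.69-fold lower in the double knockdown (adjusted p = 1.94e-11) and 3.35-fold lower in shOpa1 (adjusted p = 2.50e-13). It was 1.25-fold higher in the double knockdown than in shOpa1 (adjusted p = 0.0383). This smaller call was lost with the 2 groups fitted alone (adjusted p = 0.0571) and without shOpa1 replicate 1 (0.176) or 3 (0.141), double knockdown replicate 1 (0.151) or 2 (0.173), or replicate 1 of every group (0.370). The interaction term was -0.19 ± 0.12 (adjusted p = 0.516).

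Dkk2, which binds the Lrp co-receptors, was covered by 4 to 20 counts per library. Its levels were 0.378 to 0.793 CPM in shNT, 0.274 to 0.778 in the double knockdown, 0.416 to 0.467 in shMtfr1l and 0.198 to 0.429 in shOpa1. Neighbouring groups in the order of their means overlapped. It was not tested.

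Wif1, which binds Wnt ligands through its WIF domain, followed the same order of groups as Dkk3 at a much lower level. In shNT it was at 2.93, 3.01 and 2.98 CPM in replicates 1, 2 and 3, and in shMtfr1l at 5.98, 3.80 and 4.29 CPM. In shOpa1 it was at 0.940, 1.33 and 0.858 CPM, and in the double knockdown at 0.788, 1.63 and 2.37 CPM. The shMtfr1l libraries were above all others, with replicate 1 the highest, and both Opa1 knockdown groups were below shNT and overlapped each other. Wif1 was 2.84-fold lower in shOpa1 than in shNT (log2 -1.51 ± 0.41 SE; adjusted p = 0.00432) and 4.48-fold lower than in shMtfr1l (adjusted p = 5.91e-05). The double knockdown was 2.94-fold below shMtfr1l (adjusted p = 0.00308), a call lost without replicate 1 of every group (adjusted p = 0.167). The rise in shMtfr1l over shNT, 0.66 ± 0.38 on the log2 scale, did not pass (adjusted p = 0.331), nor did the fall in the double knockdown against shNT (-0.90 ± 0.39; adjusted p = 0.0973), which passed without double knockdown replicate 3 (adjusted p = 0.0363).

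Axin2, a scaffold protein of the complex that degrades beta-catenin and a widely used readout of canonical Wnt activity, did not pass in any of the 7 comparisons (adjusted p from 0.494 to 0.949). It was at 3.42, 4.004 and 2.31 CPM in shNT and at 1.56, 3.45 and 2.96 in shMtfr1l. In shOpa1 it was at 3.07, 2.66 and 4.29 CPM and in the double knockdown at 3.19, 2.29 and 1.96. The groups overlapped throughout. Its fitted log2 differences against shNT were -0.30 ± 0.36 with Mtfr1l knockdown, 0.04 ± 0.36 with Opa1 knockdown and -0.38 ± 0.36 with both (SE), on 30 to 93 counts per library.

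Counted over the set, shMtfr1l against shNT called 2 of the 8 tested genes (Dkk3 up, Sfrp2 down), and 10.8% of all 14162 genes tested were called (5.56% higher, 5.19% lower). In shOpa1 against shNT 5 of 8 were called (Sfrp1 and Sfrp2 up; Frzb, Dkk3 and Wif1 down) against 29.4% of all genes (14.3% higher, 15.1% lower). In the double knockdown against shNT 2 of 8 were called (Sfrp1 up, Dkk3 down) against 23.1% (11.2% higher, 11.9% lower), a share near the background. The double knockdown against shMtfr1l called 6 of 8 (Sfrp1 and Sfrp2 up; Sfrp5, Frzb, Dkk3 and Wif1 down) against 21.5% (9.72% higher, 11.7% lower), and 3 of 8 without replicate 1 of every group. The same 6 genes were called in the same directions in shOpa1 against shMtfr1l, where 31.1% of all genes were called (14.9% higher, 16.2% lower). Both counts include Sfrp5, which passed the low-count filter through shMtfr1l replicates 1 and 3 and shOpa1 replicate 2. Its falls against shMtfr1l were therefore favoured by the filter and add no support to these counts. The double knockdown against shOpa1 called 2 of 8 (Dkk3 up, Sfrp2 down) against 4.77% (2.31% higher, 2.46% lower), of which only the Sfrp2 call held under each alternative. The interaction called 0 of 8, at 3.56% of all genes (1.57% higher, 1.99% lower). Sfrp5 had the only unadjusted p under 0.05 for the interaction (0.0359), on the few counts given above. The comparisons share groups, so their counts are not independent of each other.

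The set had no common direction. Its median log2 difference from shNT was 0.15 with Mtfr1l knockdown, -0.08 with Opa1 knockdown and -0.54 with both, against medians over all genes of 0.00, 0.01 and 0.00. The last of these medians rests on genes that mostly did not pass.

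**Figure D2:**
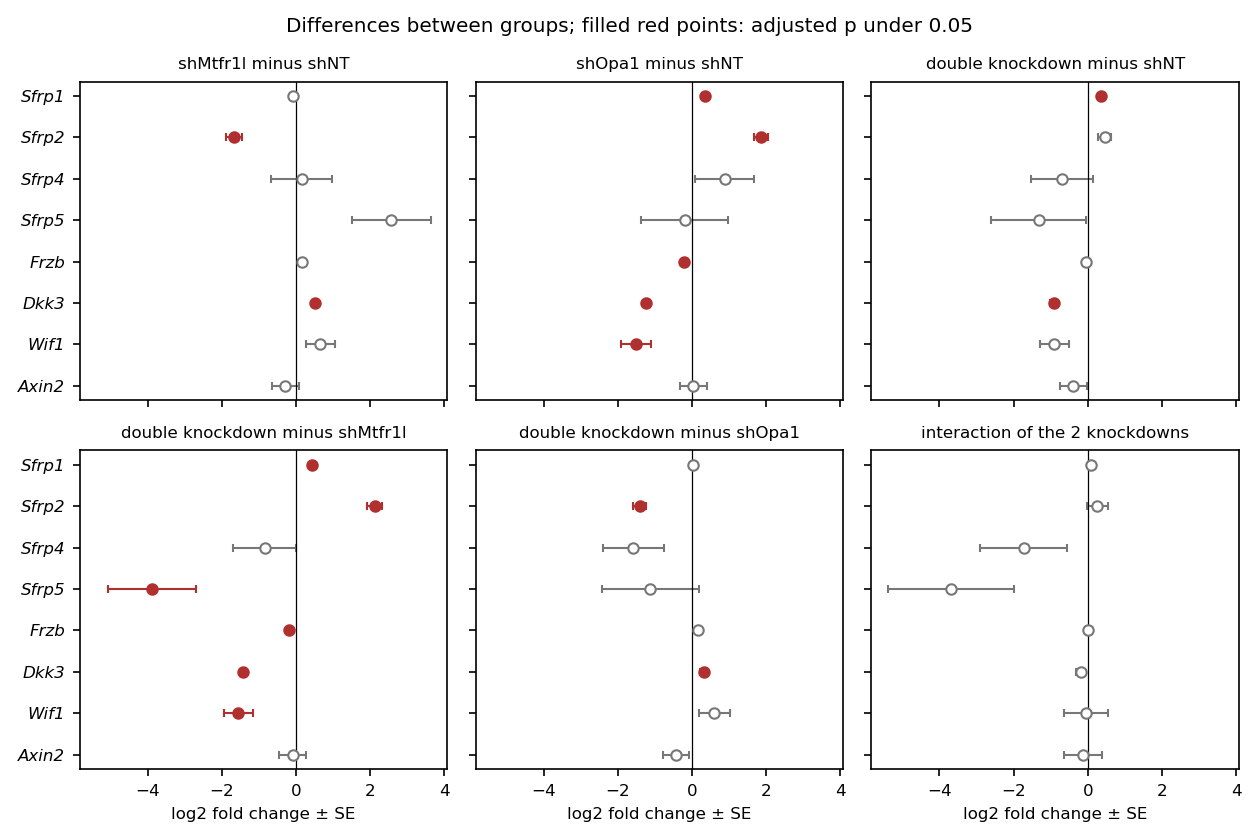
Log2 fold change with its SE (horizontal axis) for the 8 tested genes in 6 comparisons of the second set; filled red points have an adjusted p under 0.05 over all genes tested and open points do not. Sfrp2 and Dkk3 lie on opposite sides of 0 for both single knockdowns, and no gene is filled in the interaction panel.

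The level of cardiomyocyte markers moved with some of these genes in the second set. The 13 markers (among them Tnnt2, Actc1, Myh6 and Ryr2) summed to 5422 to 5815 CPM in shMtfr1l, 4239 to 4408 in shNT, 3318 to 3464 in the double knockdown and 2435 to 2739 in shOpa1. Most of this sum is Tnnt2 (a mean of 2034 CPM in shNT) and Myl4 (1447 CPM), and not every marker followed it. Mean Actc1 (145 CPM in shNT and 178 in the double knockdown) and Myh6 (50.8 and 86.8 CPM) were higher in the double knockdown than in shNT. Mean Myh7 and Actn2 were higher as well, but their libraries overlapped between these groups. The order of groups in the sum, shMtfr1l above shNT above the double knockdown above shOpa1, was that of the mean Dkk3, Wif1 and Frzb levels and the reverse of that of Sfrp2. Most of these ranks are not resolved. Between neighbouring groups no difference passed for Wif1 (adjusted p from 0.0973 to 0.524) or Frzb (0.158 to 0.743). For Sfrp2 the step between shNT and the double knockdown did not pass (0.0735). For Dkk3 the step between the double knockdown and shOpa1 (0.0383) was lost under some alternatives. The mean levels of Sfrp1, Sfrp4, Sfrp5, Dkk2 and Axin2 had other orders. In shMtfr1l against shNT 9 of 13 markers rose and 1 fell (10.8% of all genes were called), in shOpa1 0 rose and 11 fell (29.4%), and in the double knockdown 2 rose and 7 fell (23.1%).

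Markers of other cells differed between some groups as well, though the fibroblast sums of shNT overlapped with those of each other group. Fibroblast markers summed to 24353 to 26796 CPM in shNT and 26451 to 28401 in shMtfr1l, with 26366 to 27320 in shOpa1 libraries and 26547 to 28582 where both were lowered. Most of this sum is the collagen genes Col1a1 (a mean of 12497 CPM in shNT) and Col1a2 (10429 CPM), and most other members did not follow it. Of the 11 fibroblast markers 1 rose and 6 fell in shMtfr1l (10.8% of all genes called), among them Tcf21 (421 to 293 CPM), Dcn (662 to 491) and Lum (219 to 153). Against shNT, 4 rose and 4 fell in shOpa1 (29.4% of all genes called), and 2 rose and 5 fell in the double knockdown (23.1%). Epicardial and mesothelial markers summed to 654 to 685 CPM in shNT and to 510 to 568 in the other groups. Smooth muscle and pericyte markers summed to 4313 to 4675 CPM in shNT and to 3565 to 4001 elsewhere. Macrophage and leukocyte markers summed to 507 to 670 CPM in the double knockdown, above the 260 to 364 of shNT, while shMtfr1l (129 to 472) and shOpa1 (227 to 550) overlapped with shNT. The part of the makeup of the cultures in the results for the Wnt genes was not tested.

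**Figure D3:**
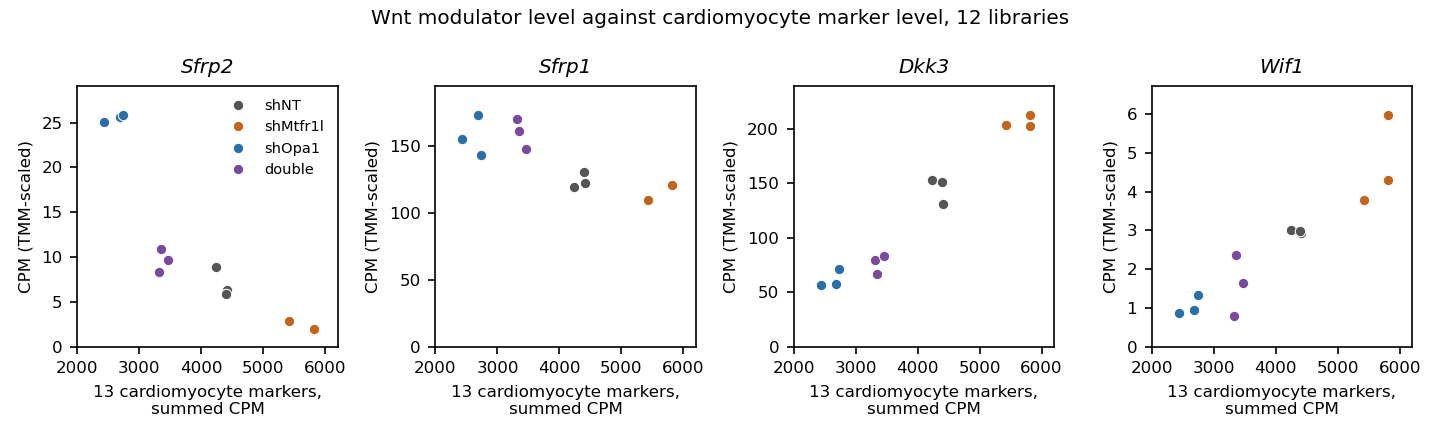
Level of Sfrp2, Sfrp1, Dkk3 and Wif1 (CPM, vertical axes) against the summed CPM of 13 cardiomyocyte markers (horizontal axis), 1 point per library of the second set, coloured by group. Libraries of a group lie together along the horizontal axis, Dkk3 and Wif1 group means increase with the marker sum, and the Sfrp2 group means decrease with it. For Wif1 no difference between neighbouring groups passed the test.

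The 8 modulators were also summed per kilobase. The shMtfr1l group had the highest sum at 146 ± 5.71 CPM per kb, ahead of shNT at 125 ± 9.06, the double knockdown at 112 ± 3.15 and shOpa1 at 110 ± 4.40 (SD, n = 3). The shMtfr1l libraries (140 to 152) were above all others, and shNT replicate 1 (115) overlapped with the Opa1 knockdown groups. Dkk3 made up 42.0% ± 1.04 of the sum in shMtfr1l and 34.5% ± 0.411 in shNT, against 20.3% ± 1.92 in the double knockdown and 16.7% ± 2.46 in shOpa1. Sfrp2 made up 11.6% ± 0.396 in shOpa1 and 4.30% ± 0.671 in the double knockdown, against 2.80% ± 0.580 in shNT and 0.764% ± 0.225 in shMtfr1l. Sfrp1 rose from 22.8% ± 1.74 in shNT to 32.7% ± 2.21 in shOpa1 as a share, while Frzb stayed between 36.1% and 42.3% in all 12 libraries. These shares add up to the whole, so a fall in one lifts the others, and they were not tested.

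**Figure D4:**
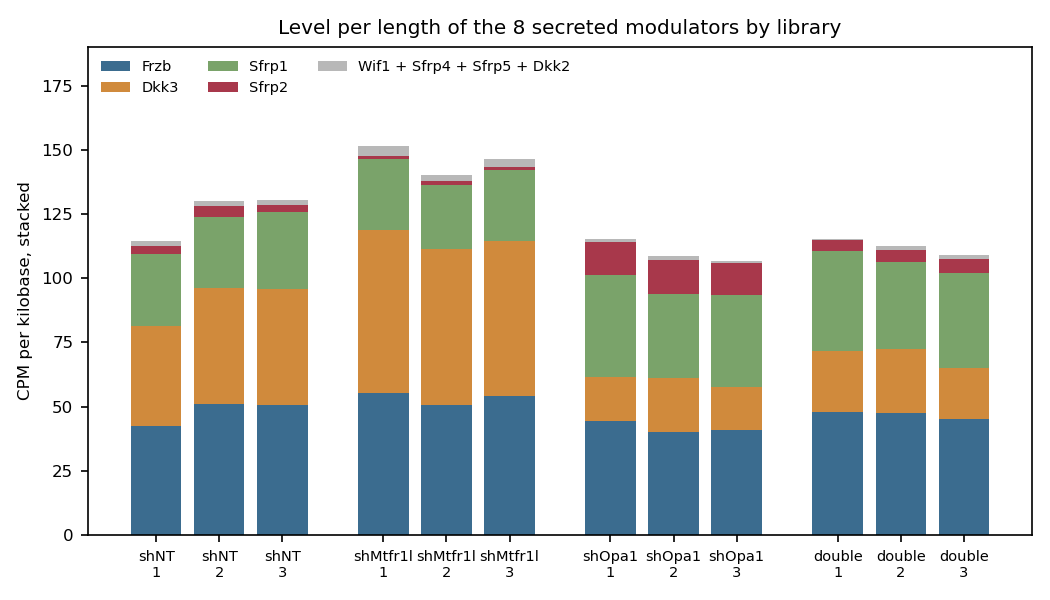
Summed level of the 8 secreted modulators in CPM per kilobase (vertical axis, stacked bars starting at 0) in each of the 12 libraries of the second set, divided by gene. The Dkk3 segment is tallest in shMtfr1l and the Sfrp2 segment in shOpa1, while the Frzb segment is on average lowest in shOpa1.

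The first set gave a second view of Mtfr1l knockdown, with 1 sample per shRNA and therefore no test. Each sample had 3 count columns, which were summed, and the set was normalised apart from the second, so only differences within it are used. Mtfr1l was at 79.2 CPM with shNT and 8.73 with shMtfr1l. All 9 Wnt genes passed the filter there. Past 1.5-fold, 4 were higher with shMtfr1l (Sfrp1, Sfrp5, Frzb and Dkk2), 2 were lower (Sfrp4 and Wif1) and 3 were within it, while 16.8% of the 15198 genes kept were past 1.5-fold (6.17% higher, 10.6% lower). Sfrp1 (1.54-fold) and Frzb (1.52-fold) were barely past it. Few counts lay behind Sfrp5 (12 with shNT and 47 with shMtfr1l), Dkk2 (22 and 71) and Sfrp4 (77 and 23). The Dkk2 columns overlapped, with up to 0.567 CPM with shNT and down to 0.561 with shMtfr1l. The median log2 difference was 0.43 over the 9 genes and 0.00 over all genes.

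Wif1 was at 32.6, 29.7 and 27.9 CPM in the 3 columns of the shNT sample and at 12.3, 12.5 and 10.9 in those of the shMtfr1l sample, a 2.52-fold lower level, whereas in the second set all shMtfr1l libraries were above shNT. Dkk3 was at 55.1, 59.3 and 54.2 CPM against 44.6, 46.8 and 47.0, that is 1.22-fold lower, where the second set showed a 1.42-fold rise. With this pair added to the second set and the set as a covariate, the Dkk3 rise was 0.31 on the log2 scale and did not pass (adjusted p = 0.213). The cardiomyocyte markers were higher with shMtfr1l in both sets, summing to 14080 CPM with shNT and 19080 with shMtfr1l in the first, where Dkk3 and Wif1 were lower. Macrophage and leukocyte markers summed there to 152 CPM with shNT and 77.7 with shMtfr1l, and smooth muscle and pericyte markers to 5076 and 3715 CPM. Their part in the Wnt gene differences was not tested.

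Sfrp2 was low in the first set and differed little (0.942 CPM with shNT and 0.733 with shMtfr1l, 62 and 47 counts over 3 columns). Its columns overlapped, while its direction was that of the second set. Sfrp5 was at 0.188, 0.0858 and 0.283 CPM in the shNT columns and at 0.474, 0.702 and 1.02 in the shMtfr1l columns, higher in all 3, as in the second set. Frzb was at 54.1 and 82.5 CPM, 1.52-fold higher, and with the pair added to the second set its rise of 0.27 (log2) passed (adjusted p = 0.0162), where the second set alone had not (0.15 ± 0.07; adjusted p = 0.158). Sfrp1 was 1.54-fold higher (17.7 and 27.2 CPM), Sfrp4 was 3.08-fold lower (1.17 and 0.359 CPM), and Axin2 was at 3.72 and 5.02 CPM. In sign, 5 of the 8 genes tested in the second set differed between the sets (Sfrp1, Sfrp4, Dkk3, Wif1 and Axin2), of which Dkk3 alone had been called. The share of all genes that differed in sign was not computed, so this count has no background to be read against.

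**Figure D5:**
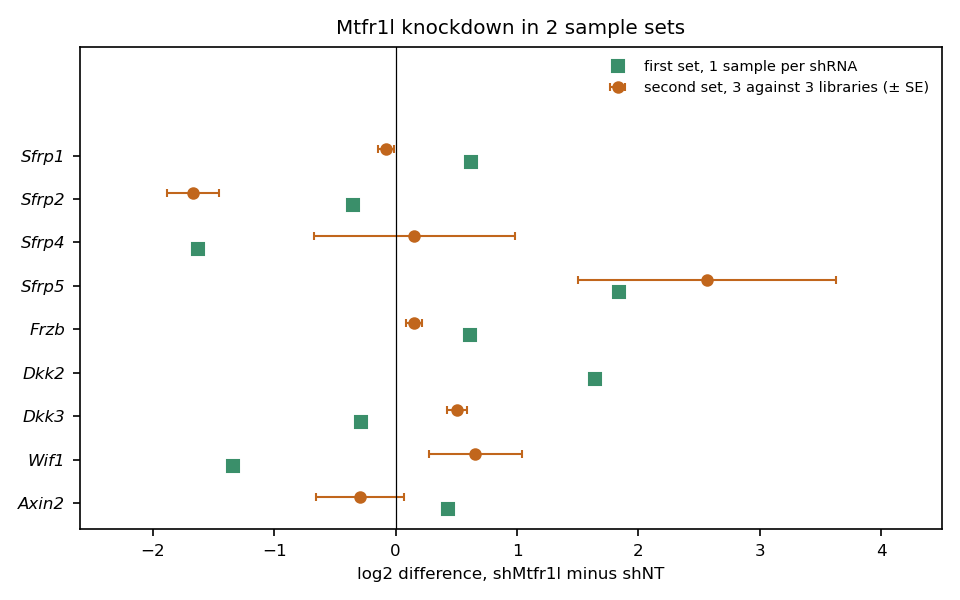
Log2 difference of shMtfr1l from shNT (horizontal axis) for each gene in the first set (green squares, 1 sample per shRNA, no error) and the second set (orange circles with SE, 3 against 3 libraries; Dkk2 was not tested there). Of the 8 genes in both, Sfrp1, Sfrp4, Dkk3, Wif1 and Axin2 lie on opposite sides of 0 in the 2 sets, and Sfrp2, Sfrp5 and Frzb on the same side.

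The rest of the pathway was read from lists of Wnt genes. The share of all genes called against shNT, to read each count below against, was 10.8% in shMtfr1l, 29.4% in shOpa1 and 23.1% after both knockdowns. Of 19 Wnt ligands 8 passed the filter. Against shNT, 0 rose and 1 fell in shMtfr1l, 0 rose and 4 fell in shOpa1 (15.1% of all genes were lower), and 0 rose and 2 fell in the double knockdown. Those lower in shOpa1 were Wnt4 (3.90 CPM in shNT and 1.27 in shOpa1; 3.05-fold; adjusted p = 6.00e-04), Wnt11 (5.19 and 2.15 CPM; 2.42-fold; 0.00217), Wnt16 (4.08 and 1.93 CPM; 2.11-fold; 0.0218) and Wnt5a (20.5 and 12.6 CPM; 1.62-fold; 0.00108). The Wnt16 call was lost without shNT replicate 1 or 2, shOpa1 replicate 1 or 2, or replicate 1 or 2 of every group (adjusted p from 0.0537 to 0.169). Wnt5a, a ligand known mainly for signalling without beta-catenin, also fell in the double knockdown (1.73-fold; adjusted p = 3.81e-04). It was the ligand called in shMtfr1l (adjusted p = 0.0330), a call lost without shNT replicate 2 (0.134) or 3 (0.143), shMtfr1l replicate 1 (0.0764) or 2 (0.255), replicate 1 (0.0766) or 2 (0.470) of every group, or the robust prior (0.0547). The median over the 8 ligands in shOpa1 was -0.89 on the log2 scale. Of Porcn and Wls, which acylate and carry Wnt ligands for secretion, neither was called against shNT.

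Among R-spondins and their partners, which raise Wnt signalling by clearing the ligases Znrf3 and Rnf43 from the membrane, 6 of 9 genes were tested. Rspo1 fell from 3.53 CPM in shNT to 0.403 in shOpa1 (8.65-fold; adjusted p = 4.88e-05) and to 0.347 in the double knockdown (9.99-fold; 3.48e-05). Rspo2 fell from 7.34 CPM to 2.18 in shOpa1 (3.37-fold; adjusted p = 1.05e-05) and 3.21 in the double knockdown (2.29-fold; 0.00147). The receptor Lgr4 was called higher in shOpa1 (adjusted p = 0.0140), not without shNT replicate 3 (0.0660), shOpa1 replicate 2 (0.143) or replicate 2 of every group (0.141). It fell 1.38-fold in shMtfr1l (adjusted p = 0.00217), not without replicate 2 of every group (0.115) or with the first-set pair described above (0.0587).

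Of 16 receptors 15 were tested. Against shNT, 1 rose and 3 fell after Mtfr1l knockdown, 2 rose and 6 fell after Opa1 knockdown, and 1 rose and 5 fell after both, where 10.8%, 29.4% and 23.1% of all genes were called. Fzd7 fell 1.41-fold in shOpa1 (152 to 108 CPM; adjusted p = 6.38e-08) and 1.27-fold in the double knockdown (adjusted p = 6.17e-05). Fzd6 rose 1.44-fold in shMtfr1l (101 to 145 CPM; adjusted p = 7.94e-08) and 1.28-fold in the double knockdown (adjusted p = 4.06e-05). Ryk, a receptor of another family, fell 1.43-fold in shMtfr1l (170 to 118 CPM; adjusted p = 7.37e-08).

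Of 14 other inhibitors 8 were tested. Against shNT, 2 were called in shMtfr1l (10.8% of all genes), 1 in shOpa1 (29.4%) and 2 in the double knockdown (23.1%), all of them Shisa2 or Trabd2b. Shisa2, which holds Frizzled receptors inside the cell, was at 35.4 CPM in shMtfr1l, 24.8 in shNT, 18.04 in the double knockdown and 15.5 in shOpa1. It fell 1.60-fold in shOpa1 (adjusted p = 2.13e-04). It also rose in shMtfr1l (adjusted p = 0.00926), a call lost without shNT replicate 2 (0.0630), shMtfr1l replicate 1 (0.0986), replicate 1 (0.112) or 2 (0.0619) of every group, or with the first-set pair (0.0521). Its fall in the double knockdown (adjusted p = 0.0134) was lost without shNT replicate 1 (0.0585), double knockdown replicate 1 (0.0731) or replicate 1 of every group (0.175). Trabd2b, a membrane protease known to act on Wnt ligands, fell 1.38-fold in shMtfr1l (adjusted p = 1.32e-04), from 61.1 to 44.4 CPM. Its call in the double knockdown (adjusted p = 0.0439) was lost with the replicate block (0.0513), without the low-count filter (0.0503) and with 7 of the single libraries or replicate numbers left out (0.0620 to 0.409).

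Of 9 other target genes 8 were tested, and they split. In shOpa1 3 rose and 2 fell (29.4% of all genes called): Cd44 rose 1.36-fold (126 to 170 CPM; adjusted p = 1.45e-07) and Jun 1.55-fold (47.4 to 73.4 CPM; adjusted p = 5.18e-07), while Nkd1 fell 1.78-fold (63.5 to 35.6 CPM; adjusted p = 2.89e-09) and Wisp1 1.37-fold (456 to 334 CPM; adjusted p = 3.17e-09). Nkd1 is an inhibitor made in response to the pathway, in this respect like Axin2, and Myc, Jun and Cd44 are induced by many other signals as well. In the double knockdown 4 rose and 2 fell (23.1% of all genes called), Nkd1 by 1.55-fold (adjusted p = 1.41e-06). In shMtfr1l 0 rose and 3 fell (10.8% of all genes called), among them Cd44 (1.26-fold; adjusted p = 8.83e-05) and Nkd2 (1.31-fold; adjusted p = 1.29e-04). The Nkd2 call was lost when the pair of first-set samples joined the fit (adjusted p = 0.277).

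Of 23 intracellular components all were tested. Against shNT, 2 rose and 2 fell after Mtfr1l knockdown, 5 rose and 5 fell after Opa1 knockdown, and 4 rose and 4 fell after both, where 10.8%, 29.4% and 23.1% of all genes were called. The 4 calls after Mtfr1l knockdown fell to 2 without shMtfr1l replicate 2, which lost Amer1 (adjusted p = 0.0605) and Tcf7l2 (0.190), or without replicate 3 of every group, which lost Tcf7l2 (0.0967) and Tnks2 (0.0517). Without replicate 2 of every group they fell to 1, with Csnk1a1 (0.126), Amer1 (0.124) and Tcf7l2 (0.263) lost. The Tcf7l2 call was also lost without shNT replicate 2 (adjusted p = 0.0506) or 3 (0.229), shMtfr1l replicate 1 (0.0601) or the robust prior (0.0525). That of Tnks2 was also lost without shNT replicate 1 (0.0936) or replicate 1 of every group (0.173). In shOpa1 the scaffold gene Apc fell 1.46-fold (adjusted p = 4.40e-07) and Tnks, whose product marks Axin proteins for removal, fell 1.39-fold (adjusted p = 1.86e-06), while its relative Tnks2 rose from 161 to 241 CPM (adjusted p = 1.55e-10). The beta-catenin gene Ctnnb1 was 1.17-fold lower in shOpa1 than in shMtfr1l (adjusted p = 1.29e-04). Its mean in shNT lay between them, at 789.5 CPM against 721.4 in shOpa1 and 842.5 in shMtfr1l. The median log2 difference over the list lay between -0.04 and 0.06 in the comparisons with shNT.

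For each tested gene, the genes whose log2 CPM followed it most closely over the 12 libraries were identified among 14161 others. Dkk3 was followed by Tmem98 (r = 0.994), 2310022B05Rik (0.990) and Akap5 (0.989), and Sfrp2 by Lman1 (0.984), Gng12 (0.983) and Wwp1 (0.978). Wif1 was followed by Casc4 (0.971), Ppp2r3a (0.970) and Txndc12 (0.968), and Sfrp1 by Zfp36l2 (0.947), Pigw (0.942) and Clip1 (0.935). Frzb was followed by Gtf3c4 (0.941) and the Wnt co-receptor Lrp6 (0.921). For Axin2 they were Ndufb4 (0.890), C330021F23Rik (0.886) and Gldc (0.866), for Sfrp5 2210013O21Rik (0.923), Apbb2 (0.922) and Pccb (0.919), and for Sfrp4 Tmie (0.873) and 1190005I06Rik (0.844). These are the highest of very many correlations, the 12 points share 4 groups, and the values for Sfrp4 and Sfrp5 rest on few counts. All are Pearson's r. Spearman's rank correlation of Sfrp4 with Tmie and with 1190005I06Rik was 0.531, and double knockdown replicate 1 had 0 counts of Sfrp4.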

How the data were processed

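RNA of 18 samples was sequenced in 2 sets, with 1 µg of total RNA per library per the labels' protocols. Per the file headers, the authors made the deposited counts with featureCounts 2.0.6 on mm10 gene models with the reverse-strand setting and did not count read pairs, so mates count separately (in the second set 63.2% to 68.6% of the values from 1 to 20 are even). The submitters' processing notes also name FastQC and DESeq2. No aligner is named in the sources used here. In all, 12 count columns, those of the fibroblast samples among them, could not be tied to a label and were not used.

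After filterByExpr had removed low genes and TMM (trimmed mean of M values) factors had been computed, the 12 libraries of the second set were fitted with edgeR 4.0.16 in R 4.3.3 (quasi-likelihood test with robust prior, 1 coefficient per group, 8 residual degrees of freedom). A gene was called at an adjusted p under 0.05 (Benjamini-Hochberg, over 14162 genes). The SE is the log2 fold change divided by the root of its F statistic. CPM are TMM-scaled, CPM per kb divide by the annotated length in the file, and log2 CPM for correlations use a prior count of 2. The procedure was tested on simulated data. The chi-square per gene between libraries of 1 group was 5.34 to 10.2, so no library was a copy, and between columns of 1 first-set sample it was 4.34 to 7.50. The floor of 3 counts covers counting error alone, and mates counted separately make it less sure.

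The titles give replicates 1, 2 and 3 to days 7, 8 and 9, so the numbers pair libraries by labelled day. Deviations from group means correlated from -0.189 to 0.122 in the 18 pairs with the same number and from -0.136 to 0.195 in the 36 pairs with different numbers. The replicate block was an alternative fit. Alternatives were DESeq2 1.42.0 and its size factors, no low-count filter, the replicate block, the compared groups alone, each library or replicate number left out, the first-set pair added and, chosen after seeing the data, a prior without robust estimation. Genes named are the 9 studied here, the called genes of 7 Wnt pathway lists (at most the 4 with the smallest adjusted p per list and comparison) and the 3 genes most alike to each tested gene, 2 of which are not reported here. The genes and lists were chosen with earlier results of these data known. Beside the markers in the report, those of endothelium summed to 42.2 to 59.2 CPM and of Schwann cells to 2.39 to 5.39 over the 12 libraries, with overlapping groups. Figures were drawn with matplotlib 3.10.9.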

Additional observations from a re-analysis of the deposited data

Results flagged for a closer look

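The difference between shMtfr1l and shNT in Dkk3 and Wif1 had opposite directions in the 2 sets, with no overlap between shRNAs in either. In the first set this compares count columns of 1 sample per shRNA, and the labels do not say whether these columns are replicates. Their chi-square per gene was 4.34 to 7.50 within a sample, against 5.34 to 10.2 between libraries of a second-set group. How many of all genes meet the same rule was not counted. In the first set the log2 difference of shMtfr1l from shNT was -0.286 for Dkk3 and -1.335 for Wif1, and all 3 count columns of the shMtfr1l sample were below all 3 of the shNT sample. In the second set the 3 shMtfr1l libraries were above the 3 shNT libraries for both genes, by 0.51 for Dkk3 and 0.66 for Wif1 on the log2 scale. Of these, the Wif1 difference did not pass the test (adjusted p = 0.331). Sfrp1, Sfrp4 and Axin2 also differed in sign between the sets, with second-set differences smaller than or near their SE. The difference between the sets was not tested, since the first set has 1 sample per shRNA.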

How the results depend on the processing

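The 8 tested genes gave 23 called differences, of which 16 kept their direction and their call under every alternative run. These 16 include each Sfrp1 and Sfrp2 call, the Wif1 calls for shOpa1 against shNT and shMtfr1l, and the Dkk3 calls for shOpa1 and the double knockdown against shNT and shMtfr1l. The other 7 (Dkk3 in shMtfr1l against shNT and in the double knockdown against shOpa1, Frzb and Wif1 in the double knockdown against shMtfr1l, Frzb in shOpa1 against shNT, and both Sfrp5 calls) are given with their lost calls above. Without the robust prior Frzb in the double knockdown against shMtfr1l (adjusted p = 0.0515) and Sfrp5 in shOpa1 against shMtfr1l (0.0675) no longer passed. In the paired analysis with the replicate block, Sfrp2 in shMtfr1l against shNT was -1.66 (adjusted p = 1.26e-06), and no call changed other than Frzb in the double knockdown against shMtfr1l and Sfrp5 in shOpa1 against shMtfr1l. The number of called genes in the double knockdown against shMtfr1l was 3 to 6 with 1 library or replicate number left out. In the double knockdown against shOpa1 it was 1 with the 2 groups alone and 1 to 2 with libraries left out. The cause of these changes was not tested. Of 105 calls in the Wnt pathway lists covered by the naming rule, 65 kept their call under every alternative, and 0 turned direction.

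Directions turned only for differences that had not passed. With the first-set pair added, shMtfr1l against shNT gave 0.089 for Sfrp1 and -0.363 for Sfrp4. With libraries or replicate numbers left out, Axin2 ran from -0.586 to 0.195 in the double knockdown against shMtfr1l, -0.721 to 0.514 in the interaction, -0.578 to 0.016 in shMtfr1l against shNT and -0.376 to 0.364 in shOpa1 against shNT. Frzb ran from -0.133 to 0.027 in the double knockdown against shNT and -0.108 to 0.152 in the interaction, Sfrp1 from -0.042 to 0.098 in the double knockdown against shOpa1, Sfrp4 from -0.334 to 0.494 in shMtfr1l against shNT and Wif1 from -0.623 to 0.433 in the interaction. Sfrp5 ran from -2.679 to 3.928 in the double knockdown against shOpa1, -5.494 to 1.336 in the interaction and -5.221 to 0.599 in shOpa1 against shNT, where leaving out shOpa1 replicate 2 leaves 0 counts in that group and the fitted value is no measure of size. Depth limits Sfrp4, Sfrp5 and Dkk2.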
